A study of Mus musculus with 17 samples.

Results

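The simple epithelial keratin genes are Krt7, Krt8, Krt18 and Krt19. They were followed through H3K27ac HiChIP, which pulls down chromatin carrying acetylated H3K27, a mark of active promoters and enhancers, and counts read pairs that join 2 distant regions of it. A gene's loops were those with an anchor (one of the 2 joined regions) within 5 kb of one of its transcription start sites in mm9. They numbered 11 for Krt7, 37 for Krt8, 92 for Krt18 and 56 for Krt19, and 195 of the 1211657 loops of the series belonged to at least 1 of them. The genes and the comparison were chosen with their loop counts in these libraries known, so the difference of the 4 genes between the groups is given as a description, without a test.

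All libraries came from mouse embryonic stem cells (line R1, per the study's methods) made into embryoid bodies (EBs) in hanging drops and then given 0.5 µM retinoic acid (RA) for 4 days. No library was untreated. The 12 bulk libraries hold the whole mixture. The 5 libraries labelled cluster2 hold cells that were stained and sorted as positive for both EpCAM and CD38, per the study's methods, and are called double positive here. The methods say that 5 sorting runs gathered these cells, but not whether each library is 1 run or whether the bulk libraries come from separate cultures, so errors measure the spread between libraries, which may be technical.

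Keratins are the intermediate filament proteins of epithelial cells, and each filament pairs a type I with a type II chain. Krt8 (type II) and Krt18 (type I) are the usual pair of simple, single-layered epithelia and are the first keratins of the embryo. Krt7 (type II) and Krt19 (type I) join them in ducts and other simple epithelia. The type II genes and Krt18 lie in 1 cluster on mouse chromosome 15, and the other type I genes lie in a cluster on chromosome 11. Krt8 and Krt18 sit side by side on opposite strands, with no other coding gene between them.

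The contact that dominated these genes ran from Krt18 to a region between Krt18 and Krt8, and the promoters of Krt7, Krt8 and Krt18 are shown, with the centre of a further anchor that both genes reached. The promoters are the 250 bases before the RefSeq start site (GRCm38.p6), each found once in mm9, and are written on the gene's strand. Krt7 lies on the plus strand at chr15:101242584-101242833, Krt8 on the minus strand at chr15:101834774-101835023, and Krt18 on the plus strand at chr15:101858397-101858646. The region between the genes is an anchor of 6.52 kb at chr15:101843147-101849668 that overlaps no annotated gene and has no coding start site within 5 kb. The further anchor overlaps no gene and lay 25.4 kb from that of Krt18, and its middle 300 bases (chr15:101882365-101882664) are given on the plus strand. Capitals mark matches on either strand, none of which overlap, to 6 motifs. These are the core promoter box TATAAA, the GC box GGGCGG, the motif TGANTCA of the factor AP-1, the motif AGATAA bound by GATA factors, the forkhead motif TGTTTAC and the half-site AGGTCA of nuclear receptors, the family of the RA receptors.
Krt7 promoter: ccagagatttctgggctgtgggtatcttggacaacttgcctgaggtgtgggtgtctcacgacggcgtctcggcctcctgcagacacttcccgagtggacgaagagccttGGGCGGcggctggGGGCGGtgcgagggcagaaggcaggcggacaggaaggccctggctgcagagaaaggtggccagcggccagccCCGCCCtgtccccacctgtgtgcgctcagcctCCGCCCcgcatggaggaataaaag
Krt8 promoter: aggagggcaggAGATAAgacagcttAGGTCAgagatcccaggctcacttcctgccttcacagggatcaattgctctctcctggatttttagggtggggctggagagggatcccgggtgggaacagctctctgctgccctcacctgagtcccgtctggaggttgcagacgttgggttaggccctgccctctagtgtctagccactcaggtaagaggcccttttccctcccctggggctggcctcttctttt
Krt18 promoter: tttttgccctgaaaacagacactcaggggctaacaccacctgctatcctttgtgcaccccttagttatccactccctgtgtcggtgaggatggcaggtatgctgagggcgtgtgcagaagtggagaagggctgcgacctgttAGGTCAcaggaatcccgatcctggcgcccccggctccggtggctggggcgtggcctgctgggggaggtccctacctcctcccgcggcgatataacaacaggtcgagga
anchor downstream of Krt18, centre: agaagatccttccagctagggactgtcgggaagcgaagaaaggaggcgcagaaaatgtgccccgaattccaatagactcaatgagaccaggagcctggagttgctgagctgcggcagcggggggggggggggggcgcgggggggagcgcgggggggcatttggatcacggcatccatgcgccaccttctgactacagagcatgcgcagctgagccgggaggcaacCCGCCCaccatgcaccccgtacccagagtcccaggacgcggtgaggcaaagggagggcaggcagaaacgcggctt
The half-site AGGTCA occurred once in the Krt8 promoter, starting 225 bases before the start site, and once in the Krt18 promoter, 108 bases before it. It was found in 14.0% of 32851 promoters of this length. The Krt7 promoter held 4 GC boxes and no half-site, where 32.7% of promoters held at least 1 GC box, and the middle of the anchor downstream of Krt18 held 1 (7.40% of the middle 300 bases of all 216081 anchors). The Krt8 promoter also held AGATAA once (9.99% of promoters). The core promoter box, the AP-1 motif and the forkhead motif matched none of the 4 sequences, and were found in 12.4%, 6.75% and 3.17% of promoters. A match is a description of letters only.

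The libraries held 65148 to 241068 read pairs in loops (bulk) and 50508 to 118179 (double positive). Levels are normalized CPM, the read pairs of a gene or loop per 1000000 in its library after TMM scaling, which sets aside genes that differ most between libraries. The TMM factors were 0.572 to 0.800 in bulk and 2.32 to 2.51 in double positive libraries, so the scaling bears on every level. The median log2 fold change over the 14115 genes tested was -0.52 with TMM and 1.21 with library size alone, and changes are therefore also given relative to the median gene. Anchors were not the same in the files of both groups, and 7972 of the 19244 genes with an anchor (41.4%) had no read pair in any double positive library. A gene whose anchors appear in no double positive loop may have had no anchor called there, so a 0 can mean that its contacts were not counted. A low value in the mixture can come from fewer cells of a type or from less signal per cell, which cannot be told apart. The sort genes themselves were not called: Epcam had a log2 fold change of 1.05 (SE 0.57, edgeR adjusted p = 0.108) and Cd38 of 0.65 (SE 0.44, edgeR adjusted p = 0.195).

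Krt8 and Krt18, the usual pair of simple epithelia, carried far more loop read pairs in double positive cells, while Krt19 was higher with overlap and Krt7 was at 0. Of the 4 genes, 3 passed the filter on low counts (20 or more read pairs in all, with at least 5 libraries contributing), and Krt7 did not. For 2 of them, Krt8 and Krt18, every double positive library lay above every bulk library, which held for 7.22% of all genes tested. Of all genes tested, 20.6% were called higher and 42.8% lower in double positive cells (edgeR, adjusted p under 0.05). The genes were chosen on this contrast, so nothing is read from that count.

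**Figure D1:**
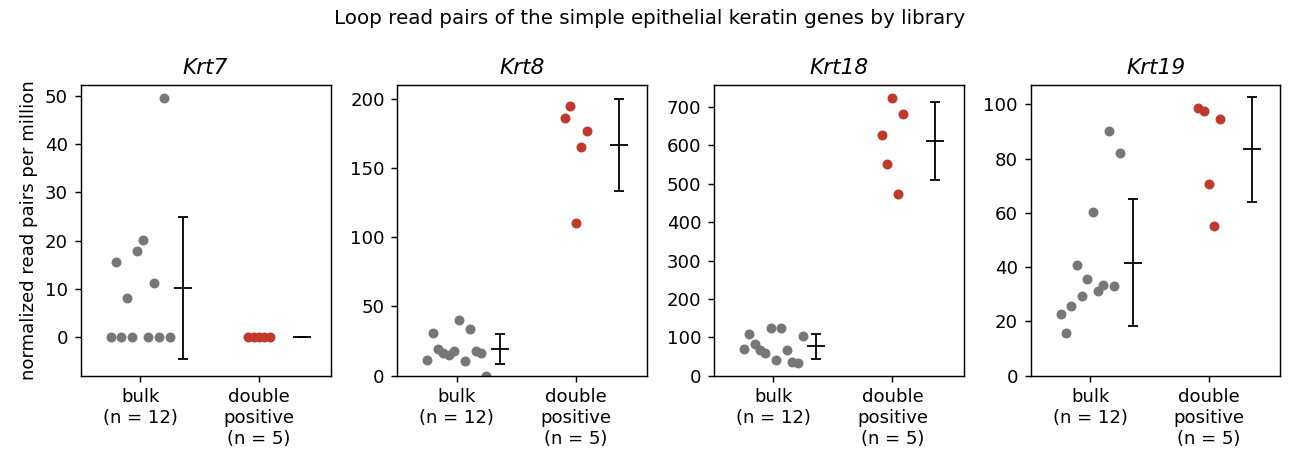
Normalized CPM (vertical axis, linear, a scale of its own in each panel) of the 4 genes in each of the 12 bulk (grey) and 5 double positive (red) libraries, with the mean ± SD beside each group. Krt8 and Krt18 separate the groups, Krt19 overlaps, and Krt7 lies at 0 in all double positive libraries.

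Krt18, the type I chain of the pair, had 172, 113, 92, 60 and 166 read pairs in the 5 double positive libraries. The 12 bulk libraries had 2 to 21, with a median of 6. The levels were 611.6 ± 100.6 normalized CPM (SD, n = 5) in double positive and 75.9 ± 32.7 (SD, n = 12) in bulk libraries. The lowest double positive library, at 473.1, stood well above the highest bulk library, at 124.3, and the groups did not overlap. The log2 fold change was 2.96 (SE 0.21), which is 3.48 above the median gene. By mean level Krt18 ranked 52 of the 14115 genes in double positive cells and 4319 in bulk.

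Krt8, its type II partner, had 51, 40, 14, 21 and 43 read pairs in the double positive libraries. In bulk, 11 of 12 libraries had a read pair, with a median of 1 and at most 6. The levels were 166.8 ± 33.6 normalized CPM (SD, n = 5) against 19.1 ± 11.02 (SD, n = 12). The lowest double positive library was at 110.1 and the highest bulk library at 40.2, so these groups did not overlap either. The log2 fold change was 2.96 (SE 0.30), or 3.48 above the median gene, the same 2 values as for Krt18 although the level was lower. Krt8 ranked 1384 in double positive cells and 12606 in bulk. Scaled by library size alone, the log2 fold changes rose to 4.73 for Krt18 and 4.70 for Krt8, and lay 3.51 and 3.49 above the median gene. With loops limited to anchors used by both groups they were 2.45 and 2.17, beside a median of 0.42 for all genes. In that setting 2534 of 9845 genes tested were called higher and 988 lower, the background of every later value with shared anchors.

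Krt19, a type I keratin of ducts and simple epithelia, had 27, 20, 9, 7 and 23 read pairs in the double positive libraries and 2 to 6 in bulk, with a median of 3. The levels were 83.3 ± 19.4 normalized CPM (SD, n = 5) and 41.6 ± 23.5 (SD, n = 12). The double positive libraries spanned 55.2 to 98.5 and the bulk libraries 15.6 to 90.1, so the groups overlapped. Bulk libraries 10 and 12 and, at 60.3, bulk library 7 lay within the double positive range. The log2 fold change was 1.16 (SE 0.32), which is 1.68 above the median gene, and 2.91 with library size alone (1.70 above the median gene). With anchors used by both groups it was 1.37, beside a median of 0.42 for all genes. That limit kept 15 of 38 bulk and 86 of 86 double positive read pairs leaving the promoter, so it removed bulk read pairs alone.

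Krt7, the type II partner of ductal epithelia, had 11 read pairs in bulk, in 6 of 12 libraries and never more than 3. It had none in the 5 double positive libraries, and its anchor at chr15:101240609-101246664 was in no double positive loop. The bulk read pairs came to 6.81 CPM of the group's total (95% exact Poisson interval 3.40 to 12.2). By the same interval, a count of 0 in double positive cells allows up to 9.01 CPM by counting error alone. With the TMM factors the bulk value was 9.69 (4.84 to 17.3) and that limit 3.78 CPM. These limits hold only if the anchor could be counted in double positive libraries, which was not tested, so no fold is given. Intervals and limits cover counting error only, since read pairs were not tagged as single molecules.

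Anchors differ in length, so levels of different genes were also taken per kb of anchor. In double positive libraries Krt18 stood at 124.3 ± 20.4 normalized CPM per kb, Krt8 at 45.4 ± 9.13 and Krt19 at 16.0 ± 3.74 (SD, n = 5). Each step of this order held in 5 of 5 libraries with no overlap, from 96.2 to 147.0 for Krt18, 29.9 to 53.2 for Krt8 and 10.6 to 18.9 for Krt19. In bulk the values were 9.92 ± 4.27 for Krt18, 5.19 ± 2.997 for Krt8, 5.14 ± 2.90 for Krt19 and 1.68 ± 2.42 for Krt7 (SD, n = 12). Krt18 was above Krt8 in 8 of 12 bulk libraries (ratio of means 1.91), and Krt8 above Krt19 in 8 of 12 (ratio of means 1.01). The ranges of these neighbours overlapped in bulk, and their differences within libraries were not tested. Krt18 and Krt19 each had a further anchor in bulk files alone, with 24 and 12 read pairs, at chr15:101863506-101866240 and chr11:100014469-100017363. With a window of 2.5 kb in place of 5 kb around the start sites, the log2 fold changes were 3.23 (SE 0.23) for Krt18, 2.85 (SE 0.31) for Krt8 and 1.40 (SE 0.35) for Krt19.

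The loops of Krt18 were dominated by the anchor between the 2 genes. This loop, 10.7 kb long between anchor centres, had 78, 50, 54, 34 and 87 read pairs in the double positive libraries. In bulk it had 37 read pairs in all, spread over 10 of 12 libraries with at most 9 in one. The levels were 315.8 ± 74.1 normalized CPM (SD, n = 5) against 30.8 ± 19.8 (SD, n = 12), and the lowest double positive library, 244.2, was above the highest bulk library, 61.5. It had more read pairs than any other of the 116227 loops with a double positive read pair outside the first 3200000 bases of chromosome 11, in the sum and in each of the 5 libraries. In bulk it ranked 264 of 1141406 by the sum. The 125 loops within that end of chromosome 11 were left out of the ranks. The ranks were not adjusted for the span of a loop or the length of its anchors, so they compare read pairs only.

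The same anchor also reached Krt8, over a similar distance of 12014 bases (10.7 kb for Krt18) but with fewer read pairs. The Krt8 loop had 19, 13, 3, 13 and 20 read pairs in double positive libraries, or 68.2 ± 29.1 normalized CPM (SD, n = 5), and 5 in all of bulk. The Krt18 side of the anchor had more read pairs than the Krt8 side in 5 of 5 double positive libraries and in 10 of 12 bulk libraries, and the other 2 had none on either side. The Krt18 and Krt8 anchors are 4.92 and 3.67 kb long, and this comparison was chosen after its values were seen. The loop joining Krt8 to Krt18 directly, 22.8 kb long, closed the triangle with 16, 13, 4, 3 and 14 read pairs. It stood at 46.9 ± 18.02 normalized CPM in double positive and 1.95 ± 3.68 in bulk libraries, where 3 libraries had 1 read pair each. The log2 ratio of the 2 group means was 4.59, and its bulk mean rests on those 3 read pairs.

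**Figure D2:**
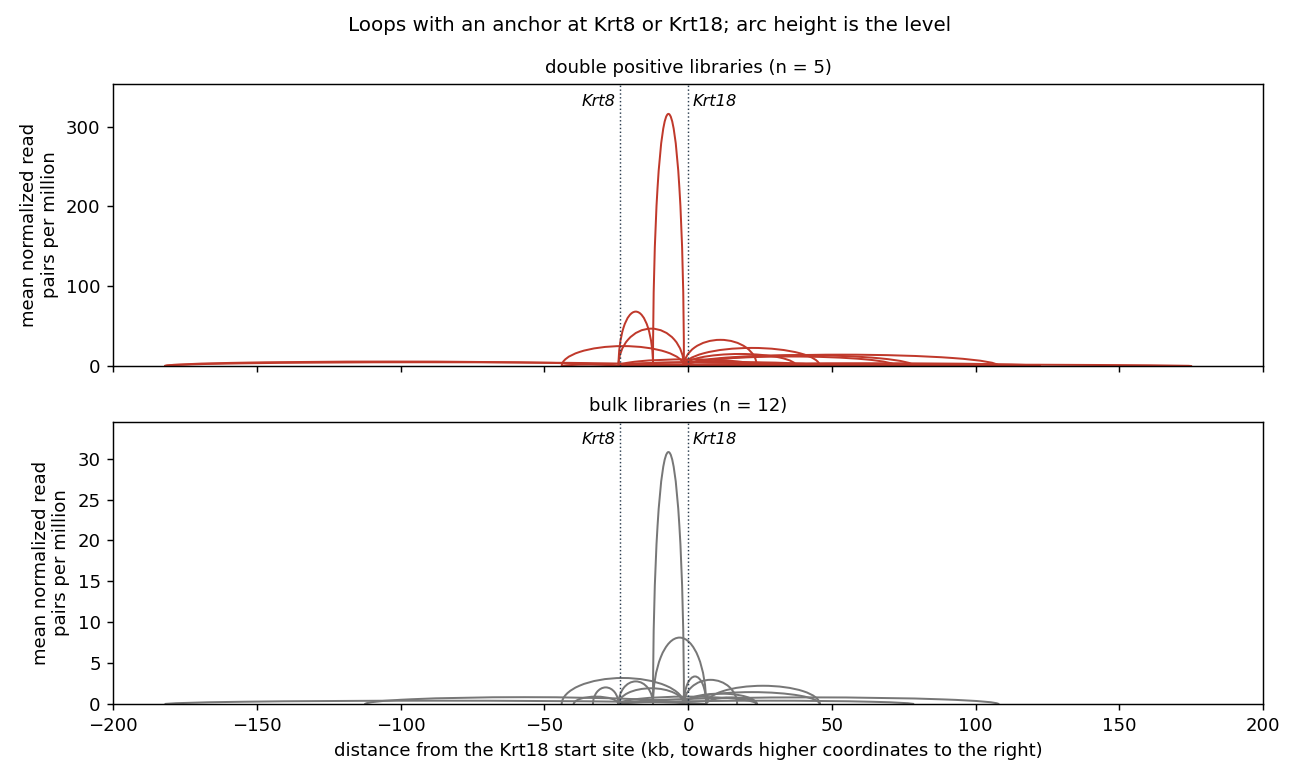
Loops with an anchor at Krt8 or Krt18 within 200 kb of the Krt18 start site, drawn as arcs between anchor centres (horizontal axis, kb from the Krt18 start), with arc height giving the mean normalized CPM (vertical axis, linear, and about 10 times smaller in the bulk panel). The loop from Krt18 to the anchor between the genes is the highest in both panels, at 315.8 in double positive and 30.8 in bulk libraries.

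The anchor between the genes thus took 303 of the 603 double positive read pairs of Krt18, or 50.2% (95% exact binomial interval 46.2 to 54.3), and the share ran from 44.2% to 58.7% over the 5 libraries. In bulk the Krt18 anchor used in both groups gave it 37 of the gene's 90 read pairs, or 41.1% (30.8 to 52.0). The bulk-only anchor of Krt18 gave it 8 more, which are among the 90 but not the 37. The bulk share of the gene is therefore understated here, and no rise in double positive cells is read from it. Of the Krt8 read pairs it took 68 of 169 (40.2%, interval 32.8 to 48.0) in double positive and 5 of 24 (20.8%, interval 7.13 to 42.1) in bulk libraries. The intervals of the 2 groups overlapped for both genes. Seen from the anchor itself, 371 of its 590 double positive read pairs (62.9%) and 42 of 118 bulk read pairs (35.6%) went to Krt8 or the Krt18 anchor used in both groups. A further 8 of the 118 went to the bulk-only anchor of Krt18, so the bulk share for the 2 genes is higher than 35.6%. Its whole level was 606.0 ± 59.8 normalized CPM (SD, n = 5) in double positive and 99.1 ± 32.9 (SD, n = 12) in bulk libraries.

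Beyond the triangle, Krt18 reached both sides of the locus. Its next loops went to the gene-free anchor 25.4 kb downstream, chr15:101881429-101883600, whose centre is shown above, with 32 double positive and 2 bulk read pairs, and to chr15:101813391-101815882, 42.5 kb away beyond Krt8, with 25 and 5. The first stood at 32.9 ± 8.94 normalized CPM and the second at 25.04 ± 4.90 in double positive libraries (SD, n = 5). Krt8 reached the same downstream anchor, 48.1 kb from it, with 8 double positive read pairs and 1 in bulk. Further partners of Krt18, chosen after their values were seen, lay downstream. Eif4b, a translation initiation factor gene 47.3 kb away, had 22 double positive and 1 bulk read pair. Tenc1 had 14 and 12 double positive read pairs on 2 anchors and none in bulk, and Spryd3, 109.5 kb away, had 13 and none. These Krt18 counts are from its anchor used in both groups. The bulk-only anchor of Krt18 had 3 more bulk read pairs with the Eif4b anchor and 1 more with the anchor 25.4 kb downstream.

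These contacts gave the locus a side that depended on whether the interval was counted. Of the read pairs leaving Krt8 or Krt18, those joining the pair left out, 22.1% ± 16.3 (SD, n = 12) in bulk and 41.3% ± 8.54 (SD, n = 5) in double positive libraries led towards higher coordinates. The share was below 50% in 11 bulk libraries and above it in none (two-sided exact sign-flip test, p = 0.000977, adjusted p = 0.00488 over 5 such tests). It was below 50% in 5 of 5 double positive libraries, where the smallest p that the test can give is 0.0625 (exact test, adjusted p = 0.156). Without partners between the genes, 70.6% ± 8.55 of double positive read pairs led towards higher coordinates, above 50% in 5 of 5 libraries (exact p = 0.0625, the smallest possible, adjusted p = 0.171), and 34.6% ± 27.2 in bulk (exact p = 0.0801, adjusted p = 0.171). With spans of at least 20 kb alone, the shares were 71.1% and 38.0%. For Krt19 the shares were 38.3% ± 9.10 in double positive and 34.2% ± 31.7 in bulk libraries (exact p = 0.125 and 0.137, adjusted p = 0.171 for both). For Krt7 the bulk share was 66.7% ± 42.2 over 6 libraries (exact p = 0.5). The test takes both sides as equally likely. It does not allow for how many anchors were called on each side in a group, and the part of this in the shares was not tested.

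The 4 genes differed in what their partner anchors held. For Krt18, anchors without a coding start site within 5 kb took 67.3% of the double positive read pairs (95% exact binomial interval 63.4 to 71.1) and 74.4% of bulk (64.2 to 83.1). For Krt8 they took 50.9% (43.1 to 58.7) and 66.7% (44.7 to 84.4), and Krt18 took 29.6% (22.8 to 37.1) and 12.5% (2.66 to 32.4). For Krt19 they took only 11.6% (5.72 to 20.3) of double positive read pairs and 31.7% (18.1 to 48.1) of bulk, while other keratin genes took 41.9% (31.3 to 53.0) and 34.1% (20.1 to 50.6). Other keratin genes took 0.829% of the Krt18 and 2.96% of the Krt8 double positive read pairs. In each case the intervals of the 2 groups overlapped. The loops of Krt19 were also longer, with a median span per read pair of 173.6 kb in double positive and 373.4 kb in bulk, against 10.7 and 18.5 kb for Krt18 and 22.8 and 75.4 kb for Krt8.

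**Figure D3:**
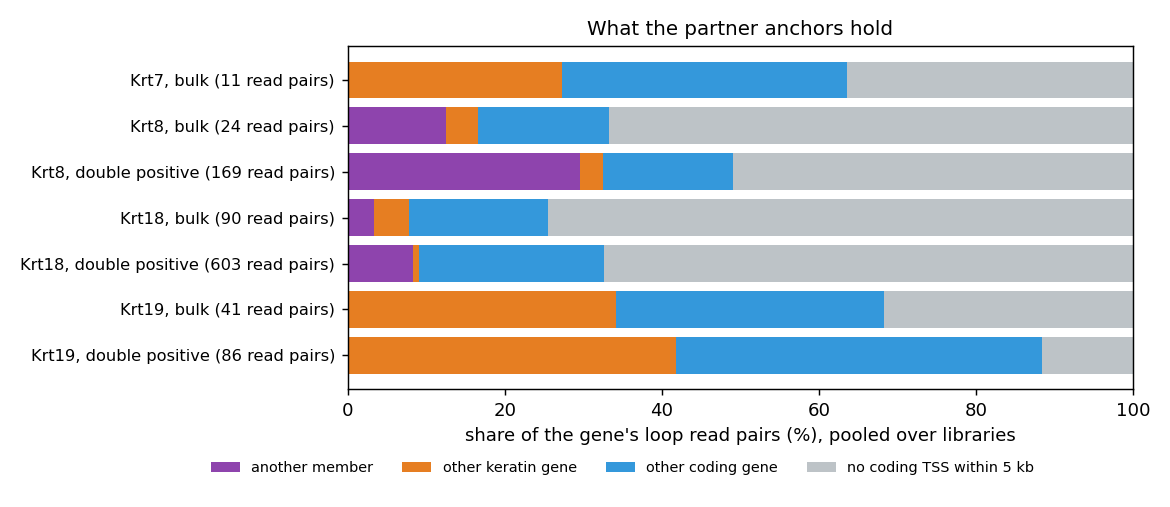
Share of each gene's loop read pairs (horizontal axis, percent, pooled over the libraries of a group) by what lies within 5 kb of the partner anchor, 1 bar per gene and group. Anchors without a coding start site lead for Krt18 (67.3% of double positive read pairs), and other keratin genes take 41.9% for Krt19.

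Krt19 looped within the type I cluster of chromosome 11. Its strongest partner was an anchor near Krt13, a keratin of stratified mucosa, 23.5 kb away at chr11:99983389-99985237, with 8, 1, 2, 2 and 5 read pairs in the double positive libraries and 4 in all of bulk. The anchor over Krt15, a keratin of basal epidermal cells 9.9 kb away at chr11:99996784-99999164, had 3, 5, 1, 0 and 2 read pairs against 1 in bulk. Eif1, a translation initiation factor gene 173.6 kb away on the other side, had 9 double positive read pairs in 5 of 5 libraries and 2 in bulk. Further off, Krt10 (760.6 kb) had 5 double positive and 2 bulk read pairs, and Krt20 (706.9 kb) had 2 and none. These are few counts, and the groups overlapped in the Krt13, Krt15, Eif1 and Krt10 loops.

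On chromosome 15, Krt8 and Krt18 met 1 other keratin gene in double positive libraries, Krt1, the type II keratin of the suprabasal epidermis. The Krt8 loop to its anchor at chr15:101675736-101677358, 157.8 kb away, and the Krt18 loop to it, 180.6 kb away, each had 5 read pairs over 4 of 5 double positive libraries. In bulk these 2 loops had none, and the bulk-only anchor of Krt18 had 1 read pair with Krt1. Bulk loops of Krt18 with other keratin anchors went to Krt82 (2 read pairs) and Krt83 (1), the Krt8 loop to Krt2 had 1, and Krt7 met Krt83, Krt81 and Krt86, genes of hair keratins, with 1 each. None of these anchors, at Krt82, Krt83, Krt81, Krt86 and Krt2, was in a double positive loop.

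The rest of both keratin clusters did not share the levels of Krt8 and Krt18. Of 47 other keratin genes, 40 had an anchor and 31 of these (77.5%) had no read pair in any double positive library, beside 41.4% of all genes with an anchor. On chromosome 15 this held for 15 of 16 genes, all but Krt1, and on chromosome 11 for 16 of 24. Of 13 tested, 0 were called higher and 5 (38.5%) lower by edgeR, beside 20.6% and 42.8% of all genes tested, with 1 higher and 6 lower at an unadjusted p under 0.05, and 1 higher and 5 lower by DESeq2. Of the 5, 4 genes, Krt23, Krt28, Krt34 and Krt81, had 21 to 30 bulk read pairs and none in double positive libraries, where no loop used their anchors, so no fold is given. The fifth, Krt26, a keratin of the hair follicle's inner sheath, had 50 bulk and 10 double positive read pairs. Its log2 fold change was -1.95 (SE 0.60, edgeR adjusted p = 0.00488), or -1.43 relative to the median gene, and with library size alone it was -0.25 (edgeR adjusted p = 0.717).

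Krt1, Krt13 and Krt15, the keratin partners named above, came nearest to a higher level. Krt1 had 32 double positive and 17 bulk read pairs and a log2 fold change of 1.07 (1.59 above the median gene, edgeR adjusted p = 0.0648). Krt1 shared 10 of its 32 double positive and 1 of its 17 bulk read pairs with Krt8 and Krt18. It was called without bulk library 11 (log2 fold change 1.38, edgeR adjusted p = 0.0158) and without bulk library 6 (1.18, edgeR adjusted p = 0.048). It was also called by DESeq2 (1.22, adjusted p = 0.0394), with shared anchors (2.10, edgeR adjusted p = 0.00885) and with spans of at least 20 kb (1.23, edgeR adjusted p = 0.0321). Krt13 had a log2 fold change of 0.72, not called (edgeR adjusted p = 0.117), and shared 18 of 56 double positive and 6 of 37 bulk read pairs with Krt19. Krt15 had a log2 fold change of 0.79, not called (edgeR adjusted p = 0.276), and shared 11 of 22 and 1 of 14. With a window of 2.5 kb both were called (1.15 and 1.74, edgeR adjusted p = 0.0226 and 0.0204), and Krt13 also with shared anchors (1.19, edgeR adjusted p = 0.0389). Krt1 and Krt13 were called in the 10 libraries numbered 1 to 5, with the replicate block (1.54 and 1.28) and without it (1.48 and 1.28), and all of Krt1, Krt13 and Krt15 with library size alone (2.78, 2.48 and 2.47). All of these tests and calls of Krt1, Krt13 and Krt15 count the loops shared with the members, which were chosen on this contrast. They are therefore not separate from the levels of the members, and levels without those loops were not tested. The median over the 13 tested keratin genes was -0.75, beside -0.52 for all genes.

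Keratin filaments attach to desmosomes and to plakins, the large linker proteins. Of 14 gene symbols listed for these structures, 12 were in the annotation, and all 12 had an anchor. Of these, 11 were tested, and 3 (27.3%) were called higher and 5 (45.5%) lower. These shares are near the 20.6% and 42.8% of all genes tested. Plec, which encodes the linker plectin, had 343.7 ± 50.1 normalized CPM (SD, n = 5) against 180.8 ± 74.6 (SD, n = 12), a log2 fold change of 0.93 (SE 0.22, edgeR adjusted p = 0.00046). Jup, which encodes plakoglobin, had a log2 fold change of 0.84 (SE 0.30, edgeR adjusted p = 0.0164), and Pkp3, plakophilin 3, of 0.60 (SE 0.26, edgeR adjusted p = 0.0429). None of the 3 separated the groups without overlap. With anchors used by both groups, Jup was at 1.77 (edgeR adjusted p = 3.32e-05), while Plec was at 0.30 and Pkp3 at -0.08 (edgeR adjusted p = 0.286 and 0.836). Macf1, a plakin that links actin to microtubules, fell by 3.40 on the log2 scale (SE 0.30, edgeR adjusted p = 2.28e-11), and was at -1.65 with library size alone and -0.58 with shared anchors (edgeR adjusted p = 0.345). Dst, Pkp4 and Pkp1 were called lower with 113, 62 and 23 bulk read pairs and none in double positive libraries, as was Perp with 22. Dsp, which encodes desmoplakin, had 32 double positive and 29 bulk read pairs and was not called.

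Of 15 intermediate filament genes that are not keratins, 14 were tested, and 2 (14.3%) were called higher and 9 (64.3%) lower, beside 20.6% and 42.8% of all genes tested. DESeq2 called 2 higher and 6 lower. The 2 encode nuclear lamins. Lmna had 1053.0 ± 94.2 normalized CPM (SD, n = 5) against 379.2 ± 337.7 (SD, n = 12), a log2 fold change of 1.42 (SE 0.28, edgeR adjusted p = 5.03e-05). Lmnb2 had a log2 fold change of 1.1 (SE 0.25, edgeR adjusted p = 0.000254), and 0.28 with shared anchors (edgeR adjusted p = 0.347). The lower genes with the smallest p were those of neurons, neural progenitors and the lens: Ina (-2.15, SE 0.34), Nefl (-2.67, SE 0.50), Nes (-1.56, SE 0.30) and Bfsp2 (-2.17, SE 0.48), with edgeR adjusted p of 1.56e-06, 2.61e-05, 3.45e-05 and 0.000191. Relative to the median gene they were at -1.63, -2.15, -1.04 and -1.65. With library size alone none of the 9 was called lower, and Nes turned to 0.23 while the other 3 stayed between -0.42 and -0.98. The median over the 14 genes was -1.15, beside -0.52 for all genes.

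**Figure D4:**
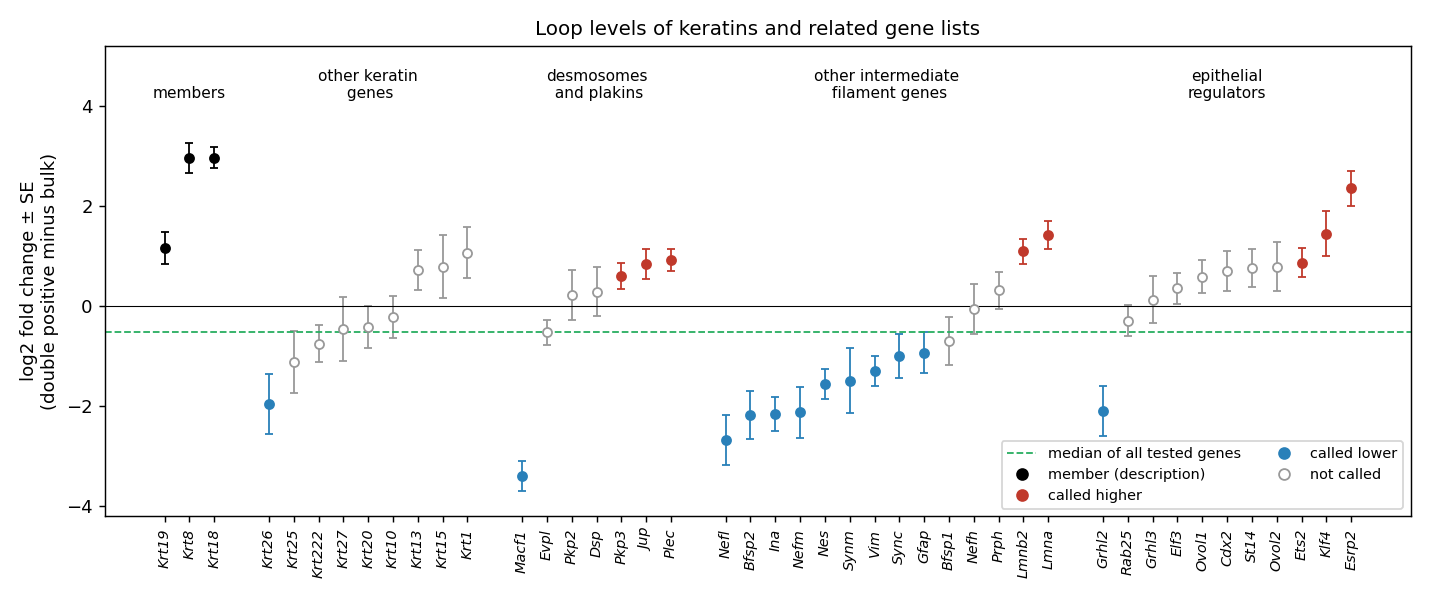
Log2 fold change ± SE (double positive minus bulk, vertical axis) of Krt8, Krt18 and Krt19 (black, a description) and of the tested genes of 4 lists that had a double positive read pair, coloured by call, with the median of all genes (-0.52) as a dashed line. Krt8 and Krt18 lie at 2.96, and the highest gene of the lists, Esrp2, at 2.35.

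Of 18 gene symbols listed as regulators of epithelial identity, 16 were in the annotation and 13 were tested. Of these, 3 (23.1%) were called higher and 3 (23.1%) lower, beside 20.6% and 42.8% of all genes tested. Esrp2, a splicing regulator of epithelial cells, had 265.9 ± 44.1 normalized CPM (SD, n = 5) against 56.5 ± 66.0 (SD, n = 12). Its log2 fold change was 2.35 (SE 0.35, edgeR adjusted p = 7.59e-07), 2.87 above the median gene, and it was the only called-higher gene of these 4 lists whose groups did not overlap. Klf4 (1.45, SE 0.45) and Ets2 (0.87, SE 0.29), both transcription factors, had edgeR adjusted p of 0.00498 and 0.00999. Ehf and Klf5, epithelial transcription factors, had 51 and 33 bulk read pairs and none in double positive libraries. Grhl2, a grainyhead factor of epithelia, fell by 2.10 on the log2 scale (SE 0.50, edgeR adjusted p = 0.000406), and was at -0.42 with library size alone (edgeR adjusted p = 0.473). The count of higher genes rose to 5 without bulk library 5, with Ovol1 and Cdx2 added. The median over the 13 genes was 0.59.

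Markers of the cell types that EBs can hold moved with the groups too, and their part in the levels of the 4 genes was not tested. Of 16 tested endoderm marker genes, 6 (37.5%) were called higher and 4 (25%) lower, beside 20.6% and 42.8% of all genes tested. With library size alone 12 were called higher and 3 lower, beside 7800 and 3702 of all 14115 genes. The endoderm markers had a summed level of 1540 to 2059 normalized CPM in double positive and 898.4 to 1517 in bulk libraries. Col4a1 and Col4a2, both called higher, had the same double positive values, 256 read pairs and 270.0 ± 51.8 normalized CPM (SD, n = 5). Both genes enter the count and the sum, so they are not 2 separate observations. Sparc, a matrix protein of parietal endoderm, had a log2 fold change of 1.61 (SE 0.22, edgeR adjusted p = 1.87e-07), and Hnf4a and Pdgfra were among those at 0 in double positive libraries. Of 8 neural markers tested, 7 (87.5%) were called lower and 0 higher, beside 42.8% and 20.6% of all genes tested. At an unadjusted p under 0.05 and by DESeq2, 0 were higher too. With library size alone 6 of the 7 were also called lower. The sum of the neural markers was 86.5 to 168.5 normalized CPM against 909.1 to 1678 in bulk. Of 8 trophoblast markers with an anchor, 7 were at 0 in double positive libraries. Counts at 0, here and for the next 2 lists, stand beside 41.4% of all genes with an anchor, and a 0 can mean that contacts were not counted. Elf5, Gata3 and Esrrb had 82, 23 and 132 bulk read pairs. Eomes, Hand1, Ascl2 and Tpbpa had only 5, 12, 10 and 1 and were not tested. The remaining marker, Cdx2, had 53 double positive and 37 bulk read pairs. Its log2 fold change was 0.71, not called (edgeR adjusted p = 0.116), and 2.80 with shared anchors (edgeR adjusted p = 0.000129). With shared anchors the median of all genes was 0.42, and 2534 of 9845 were called higher. Cdx2 alone made up the double positive sum of 34.2 to 78.6, against 102.4 to 582.7 for the 8 markers in bulk. Of 7 surface ectoderm markers, Krt5, Krt14, Trp63 and Perp were at 0, and the sum was 39.4 to 131.5 against 20.5 to 390.7. The others, Wnt6, Krt15 and Grhl3, had 33, 22 and 36 double positive and 18, 14 and 35 bulk read pairs and were not called, and the median log2 fold change over the 4 tested was 0.46. Of 8 pluripotency markers, Nanog, Esrrb and Dppa5a were at 0. Of 5 tested, 3 (60%) were called higher and 2 (40%) lower, beside 20.6% and 42.8% of all genes tested. Those higher were Klf4 (log2 fold change 1.45), Pou5f1 (1.06) and Tdgf1 (1.02), and those lower were Esrrb and Sox2.

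Among genes with no loop in common with a member, those nearest in level over the 17 libraries (Euclidean distance of log2(level + 1)) included Zfp187 (2.71) for Krt8, Pigyl (2.43) and Ppp1r15a (2.67) for Krt18, and Cyp27a1 (2.21) and Nr2f6 (2.33) for Krt19. Zfp187 stood at 149.1 ± 17.9 normalized CPM in double positive (SD, n = 5) and 25.9 ± 15.1 in bulk libraries (SD, n = 12). Pigyl came close to Krt18 in both groups, at 574.8 ± 60.5 and 80.7 ± 43.1. The likeness mostly restates the difference between the groups, since all 17 libraries enter it.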

How the data were processed

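H3K27ac HiChIP was performed by the authors on 12 bulk and 5 double positive libraries. Reads were aligned to mm9 with HiC-Pro and loops were called with hichipper, per the study's methods. The deposited values are counts of read pairs per loop. Here, overlapping anchors were joined over all files (216081 anchors, 1211657 loops, 700 read pairs dropped), and loops were summed per gene where an anchor lay no more than 5 kb from any start site (19244 of 22380 coding genes). Genes with 20 or more read pairs, seen in at least 5 libraries (14115), were fitted with edgeR 4.0.16 (TMM, quasi-likelihood test, Benjamini-Hochberg over all genes). Side shares were tested with exact sign flips. The scripts were tested on simulated data. The genes and lists were chosen with earlier results of these data known. Genes named are the 4 members, the sort genes, called keratins (at most 6), at most 4 per direction of other lists, and the 2 nearest in level, of which some are not reported here. Named loops are those between members and the 3 strongest others of each. Alternatives included DESeq2 1.42.0, library size, other filters, windows and spans, shared anchors, thinning, a replicate block and leaving out each library.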

Additional observations from a re-analysis of the deposited data

How the results depend on the processing

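The log2 fold changes of Krt8, Krt18 and Krt19 kept their direction under every alternative, and rose with library size alone to 4.70, 4.73 and 2.91, the loop from Krt8 to Krt18 to 6.35 (3.28 with shared anchors). Leaving out 1 library gave 2.88 to 3.07 for Krt8, 2.87 to 3.04 for Krt18, 1.02 to 1.29 for Krt19 and 4.43 to 5.26 for the loop. Krt7 had no fold change, since it did not pass the filter, and no double positive side share. The counts below shift with the background. Over all genes, 7800 of 14115 were called higher and 3702 lower with library size alone, and 2534 and 988 of 9845 with shared anchors. Calls of Krt1, Krt13 and Krt15 among the other keratin genes include loops shared with the members. Other keratin genes called higher (0) became 6 with library size alone, 2 with a window of 2.5 kb, shared anchors, the replicate block or the same 10 libraries (numbers 1 to 5) without it, 1 with DESeq2 or spans of at least 20 kb, and 0 to 1 without 1 library. Those called lower (5) became 30 without a filter, 2 with at least 50 read pairs or 2.5 kb, 1 with shared anchors, the block or its 10 libraries, 0 after thinning, and 4 to 6 without 1 library. Desmosome and plakin genes called higher (3) became 6 with library size alone, 1 after thinning, and 2 to 3 without 1 library. Those called lower (5) became 1 with shared anchors, 2 after thinning, 3 with the block or its 10 libraries, and 4 to 5 without 1 library. Other intermediate filament genes called higher (2) became 4 with library size alone and 1 with shared anchors, and 2 without 1 library, and those lower (9) became 0, 4, and 6 to 9. Epithelial regulators called higher (3) became 10 with library size alone, 1 with spans of at least 20 kb, 5 with shared anchors, and 2 to 5 without 1 library. Those called lower (3) became 6 without a filter, 0 with shared anchors, 1 with the block or its 10 libraries, and 3 without 1 library. The side share of Krt8 and Krt18 became 38.0% in bulk (exact adjusted p = 0.354) and, reversed, 71.1% in double positive libraries with spans of at least 20 kb, and 34.6% and, reversed, 70.6% without partners between the genes. Without 1 library it was 19.6% to 24.1% in bulk and 40.0% to 45.03% in double positive libraries, and 60% to 80% for Krt7 in bulk, 28.2% to 37.3% for Krt19 in bulk and 34.9% to 40.4% in double positive libraries. Apart from the range over left-out libraries, 117 of the values kept their direction and side of the threshold or, for counts, stayed within 1.5 times the reported count (so that single calls could still change), 36 moved further, 2 lost their call and 2 reversed, and the causes were not tested. The comparisons of the 10 libraries and without partners between the genes were chosen after seeing the data. Same-numbered libraries of both groups did not deviate together (correlations from -0.0185 to 0.00467, none of the 5 highest with its own number), so the block is a number only. Krt8 in bulk (24 read pairs), Krt7 and single loops of Krt19 rest on few read pairs.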
